A study of Mus musculus with 8 samples.

Results

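Periostin and other matrix proteins of the hair follicle stem cell niche were followed through sorted mouse skin cells as 10 genes, Postn, Fbln1, Ltbp2, Angptl2, Tnc, Npnt, Egfl6, Aspn, Fbn1 and Lox, picked by symbol from each gene table. The table of hair follicle stem cells (HFSCs) held 9 of them among 23861 genes, and the table of epidermal stem cells (EpdSCs) held 7 among 16231. Lox was in neither table and is not analysed here, and Aspn and Fbn1 were analysed only in HFSCs. The genes were put together because several of them were lower in the HFSCs of mice labelled Msx2-KO. Their HFSC difference between the labelled genotypes is therefore given as a description, and the calls counted on it stand beside the share of all genes called, with nothing read from them.

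Bulk RNA-seq had been made from dorsal telogen skin of mice, with 2 WT and 2 Msx2-KO libraries for each cell type. HFSCs were sorted as CD34+ CD49f+ Sca-1- cells and EpdSCs as CD34- CD49f+ Sca-1+ cells. The WT mice were C57BL/6J, and the Msx2-KO mice were homozygous for an allele with a neomycin cassette inserted before exon 2 of Msx2, a germline change that all cells carry and not only the skin. WT HFSCs came from mice of 2 months and the other 3 groups from mice of 6 months, so in HFSCs age and genotype cannot be told apart. Nothing in the labels says whether a library was 1 animal or a pool, and any p-value measures only the spread between these libraries.

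The niche matrix is the mesh of secreted proteins that surrounds the bulge, where HFSCs rest between hair cycles. HFSCs make part of it themselves. Microfibrils and elastic fibres hold TGF-β in latent form, matricellular proteins such as periostin and tenascin C bind integrins and collagen without being structural, and nephronectin and EGFL6 are basement membrane ligands of integrins. In the bulge, nephronectin anchors the muscle that raises the hair, and EGFL6 marks the contact with sensory nerve endings.

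Total estimated counts ran from 3132974 to 11016659 in the HFSC libraries and from 15213684 to 21092685 in the EpdSC libraries. The targeted gene did not separate the labels. Estimated counts of Msx2 were 53 and 7 in WT HFSCs, 40 and 18 in HFSCs labelled Msx2-KO, 54 and 90 in WT EpdSCs, and 118 and 33 in EpdSCs labelled Msx2-KO. An inserted cassette can leave reads over the rest of a gene, so whole-gene counts are a weak check, and each direction below rests on the labels. Mitochondrial rRNA took 8.94% and 36.3% of the counts in WT HFSCs, 49.4% and 53.2% in those labelled Msx2-KO, 23.5% and 16.4% in WT EpdSCs, and 0.073% and 6.18% in those labelled Msx2-KO. In EpdSCs the nuclear RNA Malat1 took 1.37% and 1.32% in WT against 0.00972% and 0.0101% in libraries labelled Msx2-KO. In HFSCs it took 4.04% and 4.57% in WT against 1.11% and 1.41%. Genes listed at 0 numbered 281 and 210 in WT EpdSCs against 3281 and 945 in those labelled Msx2-KO, and 994 and 3632 in WT HFSCs against 12112 and 9245. Within each table the library names of the 2 labels differ, by prefix in HFSCs and only by number in EpdSCs. Names that run together are called a series here, and no label says that a series was a batch. Library series and genotype cannot be told apart. Across the tables, the HFSC libraries labelled Msx2-KO and the WT EpdSC libraries carry consecutive names of the same series.

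The sequences just before the start sites of 4 genes are shown because these genes carried the largest EpdSC differences that were not set by libraries at 0. Each runs 5′ to 3′ on the gene's strand over the 250 bases before the start site listed by RefSeq on GRCm38.p6, and capitals mark matches, on either strand, to TATAAA (the core of a TATA box), TAATTG (a core bound by MSX and other homeodomain proteins), GTCTG (a SMAD-binding core) or TGANTCA (an AP-1 site). Postn lies at chr3:54360857-54361106 on the plus strand, Fbln1 at chr15:85205699-85205948 on the plus strand, Npnt at chr3:132950292-132950541 on the minus strand and Egfl6 at chrX:166585717-166585966 on the minus strand.
Postn: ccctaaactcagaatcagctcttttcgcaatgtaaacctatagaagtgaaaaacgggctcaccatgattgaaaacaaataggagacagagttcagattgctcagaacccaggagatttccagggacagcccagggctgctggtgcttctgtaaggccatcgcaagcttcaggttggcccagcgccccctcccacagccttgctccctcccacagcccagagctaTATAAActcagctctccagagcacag
Fbln1: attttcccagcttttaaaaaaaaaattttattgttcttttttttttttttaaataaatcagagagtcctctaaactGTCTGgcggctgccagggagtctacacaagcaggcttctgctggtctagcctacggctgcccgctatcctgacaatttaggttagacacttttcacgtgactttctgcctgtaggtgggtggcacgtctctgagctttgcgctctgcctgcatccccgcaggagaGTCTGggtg
Npnt: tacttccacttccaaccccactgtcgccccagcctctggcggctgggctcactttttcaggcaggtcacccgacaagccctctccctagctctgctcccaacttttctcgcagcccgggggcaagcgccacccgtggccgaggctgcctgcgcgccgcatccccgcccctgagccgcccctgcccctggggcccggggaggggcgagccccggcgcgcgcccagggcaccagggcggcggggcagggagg
Egfl6: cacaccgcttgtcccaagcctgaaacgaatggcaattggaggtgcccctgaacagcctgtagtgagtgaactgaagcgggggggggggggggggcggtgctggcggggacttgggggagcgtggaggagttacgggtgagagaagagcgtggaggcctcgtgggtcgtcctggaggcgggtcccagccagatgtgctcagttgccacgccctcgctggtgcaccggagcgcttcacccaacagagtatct

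The table of promoters matched 9 of the 10 genes, with 2 start sites each for Postn, Fbln1, Tnc and Npnt, of which the site nearest the annotated gene start was taken. Postn carried TATAAA, beginning 26 bases before its start, and none of the other 3 motifs. TATAAA was also found before Tnc and Aspn, and 12.4% of 32851 mouse promoter windows of this length held it. TAATTG was found before Tnc and Aspn and in 7.17% of all windows. GTCTG was found before Fbln1 and Ltbp2 and in 42.2% of all windows, and TGANTCA was before none of the 9 genes and in 6.75% of all windows. No match overlapped another. The window of Npnt, with 74.0% G and C, and that of Aspn, with 30.0%, were at the opposite ends in base content.

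HFSC levels are given as CPM, the estimated counts divided by the depth of their library after TMM scaling, a factor per library that balances most genes against each other, and set to a common depth. Postn, on chromosome 3 from 54361109 to 54391037 of GRCm38, encodes periostin, a matricellular protein that binds integrins and cross-links collagen. Its HFSC levels were 3018 and 2713 CPM in WT and 1147 and 1273 in libraries labelled Msx2-KO, from estimated counts of 22610, 8393, 10528 and 5996. The labelled groups lay apart, with a WT mean of 2866 ± 216 (SD, n = 2) against 1210 ± 89.1 (SD, n = 2), 2.37-fold higher in WT. The log2 difference, labelled Msx2-KO over WT, was -1.24 with a standard error of 0.34. Postn was still among the most abundant transcripts in all 4 HFSC libraries, at the 99.9th percentile of the 11834 protein-coding genes that both tables list.

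Tnc, on chromosome 4 from 63959785 to 64047015, encodes tenascin C, the other matricellular protein among the 10. Its HFSC levels were 85.6 and 126 CPM in WT and 3.59 and 73.4 in libraries labelled Msx2-KO. A single library, labelled Msx2-KO replicate 1 and with 33 estimated counts, sat far below the other 3, so the log2 difference of -1.47 had a standard error of 1.36 and became -0.55 without that library. Tnc shares exon bases with an opposite-strand transcript, 8030451A03Rik, and reads of the 2 are uncertain, since the use of strand in counting is not given in the sources used here.

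Among the genes of elastic fibres and microfibrils, Ltbp2 and Fbln1 were both lower. Ltbp2, on chromosome 12 from 84783212 to 84876532, encodes a latent TGF-β binding protein of microfibrils that does not itself bind TGF-β. Its levels were 389 and 439 CPM in WT against 162 and 85.8 in libraries labelled Msx2-KO, a log2 difference of -1.74 with a standard error of 0.39. Fbln1, on chromosome 15 from 85205949 to 85286535, encodes fibulin 1, a glycoprotein of elastic fibres and basement membranes. It had 64.2 and 54.6 CPM in WT and 9.69 and 25.05 in libraries labelled Msx2-KO, a log2 difference of -1.78 with a standard error of 0.58. Fbn1, which encodes fibrillin 1, the core of the microfibril, had estimated counts of only 23 and 3 in WT and 11 and 9 in libraries labelled Msx2-KO and did not pass the filter on low counts. Ltbp2 overlaps the exons of an antisense gene, D030025P21Rik, so its reads carry the same doubt as those of Tnc.

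The basement membrane ligands went different ways in HFSCs. Egfl6, on chromosome X from 166523007 to 166585720, had 101 and 86.3 CPM in WT against 45.3 and 17.8 in libraries labelled Msx2-KO, a log2 difference of -1.56 with a standard error of 0.53. Npnt, on chromosome 3 from 132881745 to 132950291, encodes nephronectin and was the only 1 of the 8 genes that passed the filter whose libraries labelled Msx2-KO, at 131 and 136 CPM, lay above WT, at 86.0 and 126. Its log2 difference was 0.34 with a standard error of 0.28, and it turned to -0.44 when libraries were scaled by their totals. The WT libraries were further apart from each other than WT replicate 2 was from either library labelled Msx2-KO.

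Aspn had the largest HFSC difference of the listed genes that passed the filter. It lies on chromosome 13 from 49544443 to 49567565 and encodes asporin, a small leucine-rich proteoglycan that binds collagen and TGF-β. Its levels were 35.9 and 42.02 CPM in WT against 5.77 and 3.82 in libraries labelled Msx2-KO, the latter from 53 and 18 estimated counts, and the WT mean was 8.12-fold higher (log2 difference -3.01, standard error 0.53). Aspn shares exon bases with Cenpp on the opposite strand. Angptl2, on chromosome 2 from 33216069 to 33247717, encodes a secreted angiopoietin-like glycoprotein and lies within Ralgps1 on the opposite strand without sharing exon bases. It had 136 and 82.4 CPM in WT and 42.8 and 50.5 in libraries labelled Msx2-KO, a log2 difference of -1.23 with a standard error of 0.35.

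**Figure D1:**
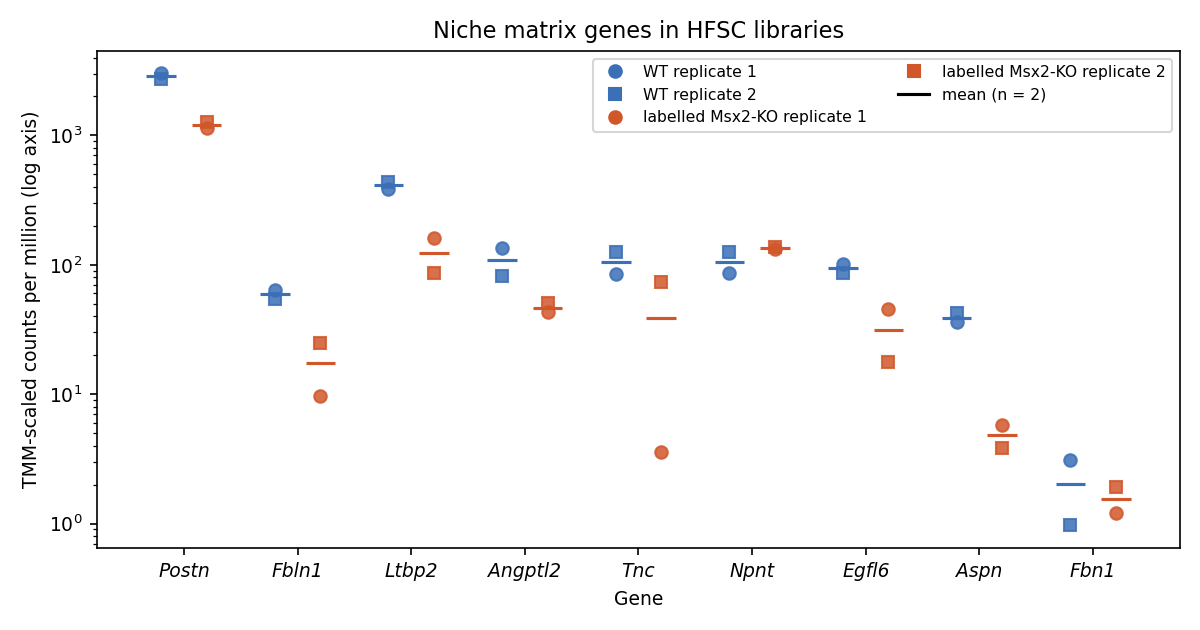
Levels of the 9 genes in the 4 HFSC libraries, in TMM-scaled CPM on a log axis, with a point for each library and a line for the mean of 2. Libraries labelled Msx2-KO lay below WT for 7 genes, above for Npnt, and among the WT values for Fbn1, and the widest gap within a label was that of Tnc, at 3.59 and 73.4.

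In HFSCs the 2 libraries labelled Msx2-KO were thus below WT for 7 of 8 genes and above WT for 1. Over the 14422 genes tested, 33.5% lay below and 17.5% above in this sense, and nothing is read from this count or from those that follow, since the genes were chosen on this contrast. By the quasi-likelihood test of edgeR, with Benjamini-Hochberg adjusted p under 0.05 and a fold over 2 asked of each gene, 0 of the 8 were called and 0% of all genes. An unadjusted p under 0.05 with a fold over 2 was reached by 6 of the 8 and by 17.2% of all genes. DESeq2 called Postn, Ltbp2 and Aspn, 3 of the 8, with 4.78% of all genes, and limma-trend called 0 of the 8 with 9.76% of all genes. The median log2 difference was -1.52 over the 8 genes and -0.14 over all genes tested.

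Other facts of the HFSC libraries moved with the labels, and their part in these differences was not tested. Lower or higher here means without overlap between the labels, as 33.5% and 17.5% of all genes tested were. The 7 HFSC markers (Cd34, Krt15, Lhx2, Sox9, Nfatc1, Lgr5 and Itga6) were all lower, with summed levels of 6437 and 6163 CPM in WT and 3405 and 3614 in libraries labelled Msx2-KO. Of 6 suprabasal markers, 5 were higher, with sums of 59.1 and 29.7 in WT and 689 and 2692, most of it Krt10 and Krt1. In bulk samples, fewer cells of a type and less RNA per cell cannot be told apart. Of 8 fibroblast markers 4 were in the table (Pdgfra, Col1a1, Col1a2 and Thy1), 3 of them lower, with sums of 48.7 and 65.3 in WT and 29.3 and 12.3. The part of fibroblast RNA in the level of Postn was not tested. Of 8 endothelial and mural markers 7 were in the table, 4 of them lower, with sums of 359.5 and 351 in WT and 173 and 135, nearly all of it Cspg4. Immune markers summed to 5.47 and 3.56 in WT and to 0 in both libraries labelled Msx2-KO.

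A ratio to basal keratins within the same library needs no scaling between libraries. Per 1000 counts of Krt5, HFSCs held 1224 and 1065 counts of Postn in WT and 746 and 847 in libraries labelled Msx2-KO. Per 1000 counts of Krt14 they held 4727 and 4062 in WT and 1335 and 1726 in libraries labelled Msx2-KO. Against Krt5, 5 genes (Postn, Fbln1, Ltbp2, Egfl6 and Aspn) lay below WT in both libraries, whereas Tnc and Angptl2 overlapped with WT and Npnt lay above. Against Krt14, 7 genes were below and Npnt overlapped, with 135 and 188 in WT and 153 and 185. Krt5 itself was lower and Krt14 higher in the libraries labelled Msx2-KO, and the choice of reference sets how far the groups lie apart. The share of all genes below WT on these scales was not computed, and nothing is read from these counts.

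In EpdSCs the order of the genes was different, and here each value is a normalized count as deposited, tested with limma on log2(value + 1) over all 16231 genes. The 10 genes were chosen on HFSC libraries, but with results of the EpdSC libraries already known. Their EpdSC p-values are therefore given as a description and are not an independent test of these genes. Postn was the only listed gene that was called. Its EpdSC values were 457 and 488 in WT and 10771 and 8326 in libraries labelled Msx2-KO. The labelled groups lay far apart, the lowest library labelled Msx2-KO being 17.05-fold above the highest WT library, and the means were 473 ± 22.2 (SD, n = 2) and 9548 ± 1729 (SD, n = 2), 20.2-fold apart. The log2 fold change was 4.32 with a standard error of 0.48, and Postn was called higher (limma, adjusted p = 0.0281, from 0.00879 to 0.296 over the alternatives). A change at least as high was found in 1.37% of all genes.

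The call of Postn rests on both WT libraries. Without WT replicate 1 its log2 fold change was 4.27 with an adjusted p of 0.296 by limma, and without WT replicate 2 it was 4.37 with an adjusted p of 0.277, settings in which the lone WT library is assumed to vary like the others and in which limma called 0 genes in all. Dividing each value by what a single count was worth gave back estimated counts of 422, 515, 8458 and 12353 for Postn. An edgeR quasi-likelihood test of these counts, added after the data were seen, gave a log2 fold change of 4.39 and an adjusted p of 0.0604, and it called 0 genes, with 33.6% of genes at an unadjusted p under 0.05 and a fold over 2, Postn among them.

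Of the 7 genes in the EpdSC table, limma called 1 higher and 0 lower, against 1.57% of all genes called higher and 7.78% called lower. At an unadjusted p under 0.05 with a fold over 2 there were 2 higher and 2 lower, against 12.2% and 23.1% of all genes. The groups did not overlap for Postn, Npnt and Fbln1, where WT was lower (as in 27.8% of all genes), or for Egfl6 and Ltbp2, where WT was higher (44.5%). The median log2 fold change was 0.29 over the 7 genes and -0.64 over all genes.

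Npnt followed Postn in direction. Its EpdSC values were 273 and 288 in WT and 2558 and 1249 in libraries labelled Msx2-KO, so that the groups lay apart although the libraries labelled Msx2-KO differed by more than the WT pair. The log2 fold change was 2.67 with a standard error of 0.59, and Npnt did not pass (limma, adjusted p = 0.0742, from 0.00981 to 0.431 over the alternatives). It passed with a pseudocount of 10 (adjusted p = 0.0491 by limma), with limma-trend (0.0447), and without labelled Msx2-KO replicate 1 (0.0311) or replicate 2 (0.00981). Egfl6, the other integrin ligand of the basement membrane, went the opposite way, with 130 and 206 in WT and 12.7 and 19.5 in libraries labelled Msx2-KO, and the WT mean was 10.4-fold higher. Its log2 fold change of -3.29 (standard error 0.56) missed the threshold by little (limma, adjusted p = 0.0505, from 0.0210 to 0.372 over the alternatives). With a pseudocount of 10, Egfl6 passed (adjusted p = 0.0426 by limma), as it did without labelled Msx2-KO replicate 1 (0.0433) or replicate 2 (0.0210).

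Fbln1 and Ltbp2 were near the bottom of the EpdSC range in WT. Fbln1 had 7.58 and 20.9 in WT and 413 and 53.9 in libraries labelled Msx2-KO. These last libraries were far apart, and the log2 fold change of 3.46 had a standard error of 1.25 (limma, adjusted p = 0.148, from 0.0338 to 0.566 over the alternatives), passing only without labelled Msx2-KO replicate 2, at 0.0338. Ltbp2 had 10.8 and 56.0 in WT, from 10 and 59 estimated counts, and was listed at 0 in both libraries labelled Msx2-KO. Against a floor of 3 counts in each of those libraries, the WT mean was at least 11.4-fold higher, a bound that is 3.71-fold with WT replicate 1 alone and 19.2-fold with WT replicate 2 alone. Ltbp2 did not pass in the limma test (adjusted p = 0.0639, from 0.0424 to 0.288 over the alternatives), and it passed with a pseudocount of 0.1 (0.0424).

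The values of Angptl2 and Tnc overlapped between the labels in EpdSCs. Angptl2 had 286 and 423 in WT and 564 and 135 in libraries labelled Msx2-KO (log2 fold change -0.33, standard error 0.90, limma adjusted p = 0.800). Its sign turned to 0.70 without labelled Msx2-KO replicate 2. Tnc had 11.9 and 78.7 in WT and 39.5 and 37.1 in libraries labelled Msx2-KO (log2 fold change 0.29, standard error 1.06, limma adjusted p = 0.852). Its sign turned to -1.02 without WT replicate 1 and to -0.23 without mitochondrial and ribosomal RNA genes. At this spread no difference was detectable for either gene, and the standard errors leave room for changes of more than 2-fold in either direction.

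**Figure D2:**
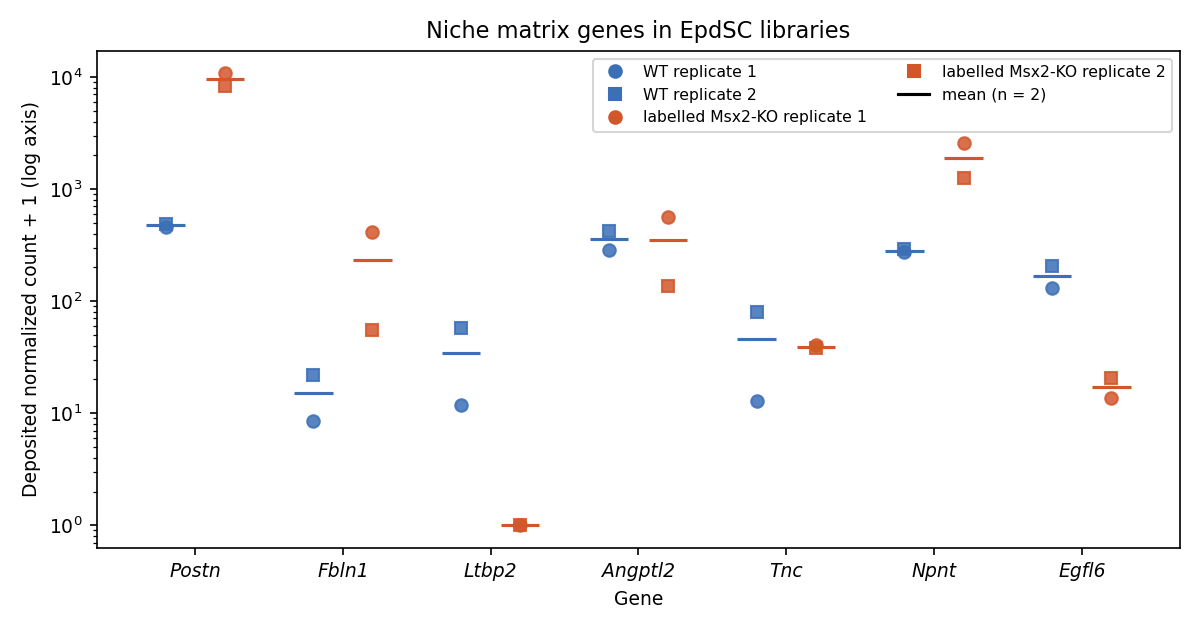
Levels of the 7 genes in the 4 EpdSC libraries, as deposited normalized counts plus 1 on a log axis, with a point for each library and a line for the mean of 2. Postn rose from 457 and 488 in WT to 10771 and 8326 in libraries labelled Msx2-KO, Npnt and Fbln1 lay above WT, Egfl6 below, and Ltbp2 was at 0 in both libraries labelled Msx2-KO.

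**Figure D3:**
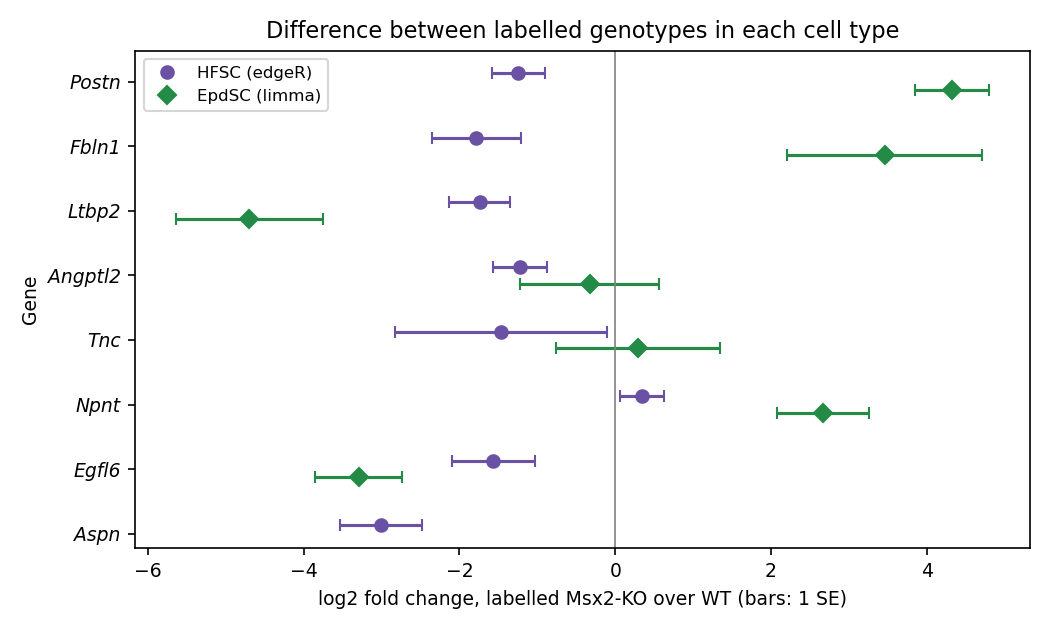
The log2 fold change, labelled Msx2-KO over WT, of each gene in HFSCs (circles, edgeR) and EpdSCs (diamonds, limma), with bars of 1 standard error from 2 libraries a group. Postn, at -1.24 and 4.32, and Fbln1, at -1.78 and 3.46, had opposite signs in the 2 cell types, while Ltbp2 and Egfl6 were negative and Npnt positive in both.

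Side by side, then, Postn and Fbln1 were lower in HFSCs and higher in EpdSCs labelled Msx2-KO in every library, Ltbp2 and Egfl6 were lower in both, and Npnt was higher in both. The cell types share no libraries, but the HFSC libraries labelled Msx2-KO and the WT EpdSC libraries come from the same name series. The tables were scaled differently by the authors, and the difference between the 2 contrasts was not tested.

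Ranks within a library can be set side by side across the tables. Among the 11834 shared protein-coding genes, Postn stood at the 60.5th and 62.9th percentiles in WT EpdSCs and at the 97.2nd and 98.3rd in those labelled Msx2-KO, against the 99.9th in each HFSC library. Npnt stood at the 46.2nd and 47.8th percentiles in WT EpdSCs, at the 86.7th and 83.2nd in those labelled Msx2-KO, and from the 91.8th to the 96.4th in HFSCs. Ltbp2 separated the cell types most widely, at the 99.2nd percentile in both WT HFSC libraries and at the 3.5th and 15.8th in WT EpdSCs. Fbln1, at 2.6 and 7.0 in WT EpdSCs, reached 57.5 and 21.3 in those labelled Msx2-KO. In WT, all 7 genes ranked higher in each HFSC library than in either EpdSC library, although the WT HFSC mice were also younger. The genes were listed as niche genes of HFSCs, and the share of all shared genes that ranked so was not computed. Nothing is read from this count.

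**Figure D4:**
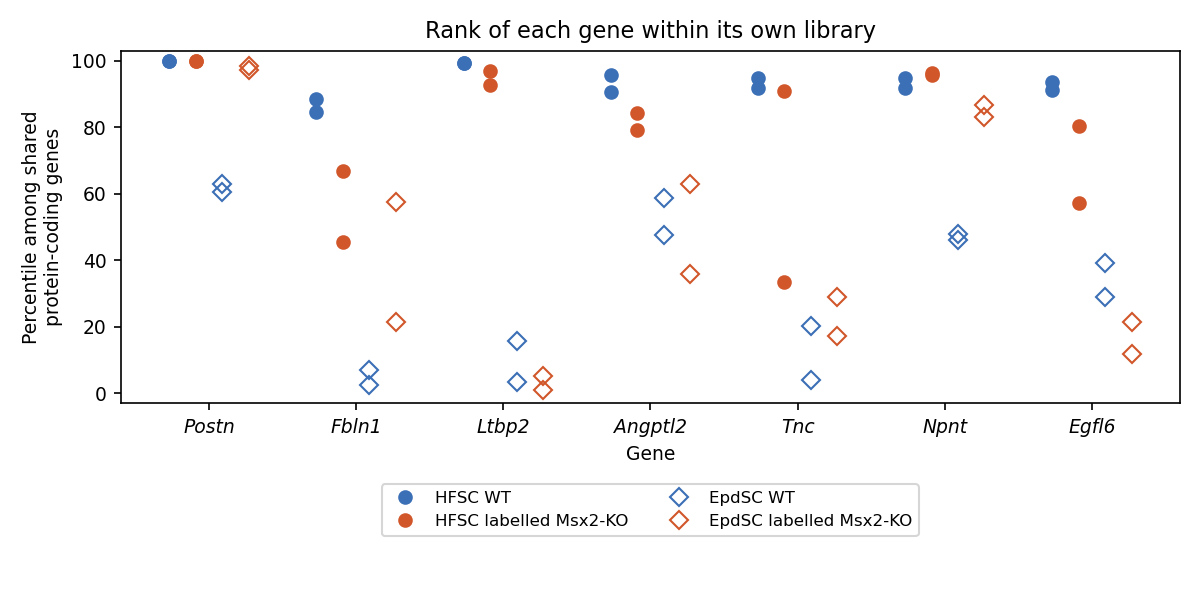
Percentile of each gene among the 11834 protein-coding genes of both tables, within each of the 8 libraries, with filled circles for HFSCs and open diamonds for EpdSCs. WT HFSCs lay above WT EpdSCs for all 7 genes, which were listed as niche genes of HFSCs, and no share over all genes was computed. Postn in EpdSCs was at 60.5 and 62.9 in WT and at 97.2 and 98.3 in libraries labelled Msx2-KO.

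Postn was also higher relative to the keratins of basal cells. Per 1000 counts of Krt5, EpdSCs held 4.69 and 4.24 counts of Postn in WT and 77.3 and 63.1 in libraries labelled Msx2-KO. Per 1000 counts of Krt14, the values were 6.36 and 5.80 in WT and 27.5 and 30.3 in libraries labelled Msx2-KO. The groups lay apart on both scales, but the distance was smaller against Krt14, which was itself higher in the libraries labelled Msx2-KO. Npnt stayed above WT on both scales, with 3.798 and 3.43 per 1000 counts of Krt14 in WT and 6.52 and 4.54. Fbln1 lay above WT per count of Krt5 but overlapped per count of Krt14, where Angptl2 and Tnc lay below WT beside Egfl6 and Ltbp2. The share of all genes that lay apart on these scales was not computed.

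**Figure D5:**
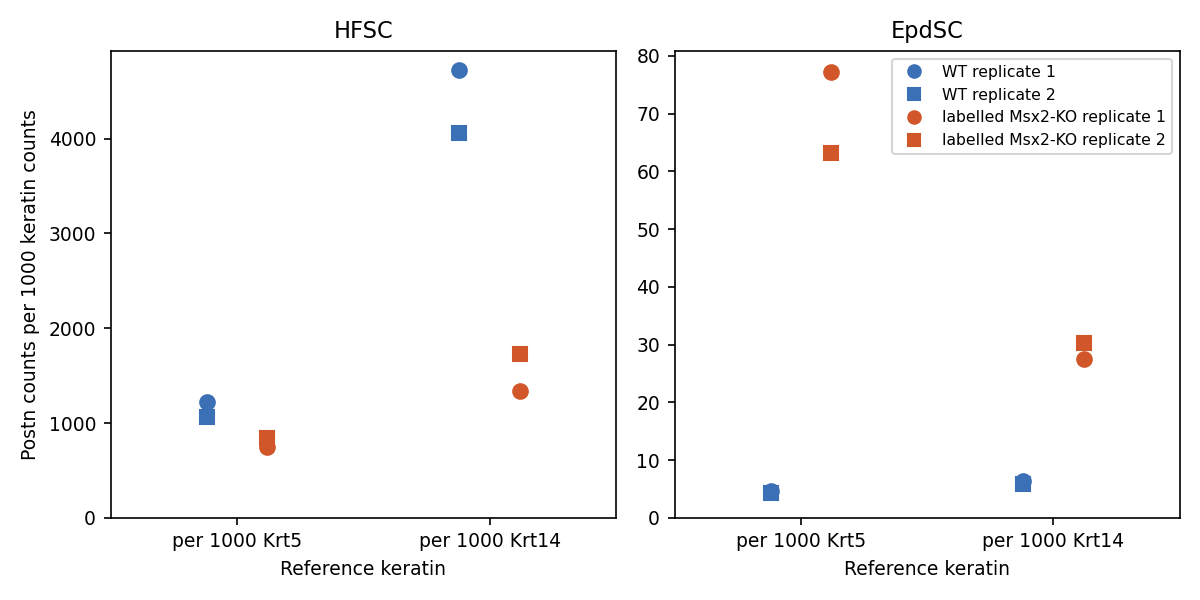
Counts of Postn per 1000 counts of Krt5 or of Krt14 in each library, in HFSCs (left) and EpdSCs (right), on linear axes that start at 0 and differ between the panels. Libraries labelled Msx2-KO were below WT in HFSCs and above WT in EpdSCs against either keratin.

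EpdSC markers had higher values beside Postn, though none passed the test. Ly6a, Krt14, Krt5 and Itga6, 4 of 4 against 27.8% of all genes, lay above WT without overlap, with summed values of 178044 and 209948 in WT and 600798 and 443445. Of 6 suprabasal markers, 4 lay below WT, as did 44.5% of all genes, and Ivl among them passed the test. The 6 summed to 263500 and 187018 in WT and to 41925 and 71567 in libraries labelled Msx2-KO. The part of these markers in the difference of Postn was not tested. HFSC markers did not move together. Of 6 in the table, Krt15, Lgr5 and Itga6 lay above WT in both libraries labelled Msx2-KO, whereas Lhx2, Sox9 and Nfatc1 overlapped with WT. Lhx2 was at 8.67 and 37.9 in WT and 6.37 and 10.8 in libraries labelled Msx2-KO. Of 8 fibroblast markers only Thy1 was in the table, with 704 and 190 in WT and 2251 and 1018 in libraries labelled Msx2-KO, so a share of fibroblast RNA was not tested. Immune markers, 4 of 5 in the table, summed to 262 and 16.1 in WT and to 2.55 and 0.674 in libraries labelled Msx2-KO. Endothelial and mural markers, 3 of 8 in the table with 1 above and 1 below WT, summed to 549 and 856 in WT and to 157 and 156, and most of the WT sum was Cspg4.

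Levels of different genes were compared per kilobase of the longest coding transcript. In WT HFSCs, Postn led with a mean level of 894 CPM per kilobase, and Ltbp2 came next at 61.2. Egfl6 at 34.7, Angptl2 at 32.7 and Npnt at 22.9 followed, each overlapping with its neighbour. Aspn at 16.7, Fbln1 at 16.2 and Tnc at 14.9 could not be put in order, since their WT libraries overlapped, and Fbn1 was last at 0.169. In HFSCs labelled Msx2-KO, Postn was still first at a mean of 377, but Npnt came second at 29.0, above Ltbp2 at 18.3 in both libraries. In WT EpdSCs the mean level per kilobase, in normalized counts, was 147.5 for Postn, 106 for Angptl2, 62.1 for Egfl6 and 60.8 for Npnt, and the last 2 overlapped. Tnc, Ltbp2 and Fbln1 were between 3.89 and 6.38. In EpdSCs labelled Msx2-KO, Postn at 2979 and Npnt at 412 led.

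Other genes of the same pathways were counted from 5 lists of 77 genes that leave out the 10. In EpdSCs 33 were tested, and limma called 0 higher and 2 lower, against 1.57% and 7.78% of all genes. WT was higher without overlap for 21 of the 33 (44.5% of all genes) and lower for 3 (27.8%), and the median log2 fold change was -2.31, with -0.64 over all genes. The 2 called lower were Angpt2, listed at 0 in both libraries labelled Msx2-KO, and Podnl1, a leucine-rich proteoglycan with 19.5 and 25.6 in WT and 0 and 1.35. Both were low in WT, with 59.6 and 38.9 for Angpt2. In HFSCs 38 list genes were tested and edgeR called 0 (0% of all genes), with 12 at an unadjusted p under 0.05 and a fold over 2 (17.2% of all genes), and DESeq2 called 6 (4.78%). The median HFSC log2 difference was -0.25, with -0.14 over all genes.

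Within the elastic fibre and microfibril list, the genes with the highest HFSC means, Hmcn1, Ltbp3 and Ltbp4, had small log2 differences in HFSCs, at -0.27, -0.18 and 0.31. Hmcn1 encodes hemicentin 1, a large matrix protein, and Ltbp3 and Ltbp4 encode binding proteins of latent TGF-β. In EpdSCs Ltbp3 had 1046 and 1106 in WT and 179 and 176 in libraries labelled Msx2-KO, and Ltbp4 had 1963 and 3559 against 377 and 296. Neither passed the limma test (adjusted p = 0.0538 and 0.0598). In this list 8 genes were tested in EpdSCs, of which 0 were called and 6 lay below WT, as 44.5% of all genes did.

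Among other matricellular genes, 8 of 11 tested were higher in WT HFSCs without overlap between the labels, as were 33.5% of all genes, and 0 were called. Tgfbi, which encodes a protein of the same family as periostin, had 497 and 500 CPM in WT HFSCs and 257 and 244 in those labelled Msx2-KO (log2 difference -0.99, standard error 0.22). In EpdSCs Tgfbi had 9405 and 11544 in WT and 6296 and 6806, below WT where Postn was above (log2 fold change -0.67, limma adjusted p = 0.350). Thbs1, encoding thrombospondin 1, had an HFSC log2 difference of -0.80 and an EpdSC log2 fold change of -0.74 (limma adjusted p = 0.404). Ccn2, a target of YAP and TGF-β signalling, had an HFSC log2 difference of -1.86 that rested on WT replicate 2, at 3177 CPM against 689 in WT replicate 1.

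Of the angiopoietin-like genes, Angptl7 was the most abundant in HFSCs. It had 871 and 594 CPM in WT and 63.7 and 80.9 in HFSCs labelled Msx2-KO, a log2 difference of -3.34 with a standard error of 0.34. Angptl4 went the other way, with 0.267 and 0.970 in WT and 26.9 and 24.0. In EpdSCs all 6 tested genes of this list had negative log2 fold changes, and Angpt2 was called lower, as given above.

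Among basement membrane genes and partners of nephronectin, the 3 with the highest HFSC means had lower values in EpdSCs labelled Msx2-KO, where those of Npnt were higher. Agrn, encoding agrin, had 3501 and 5340 in WT and 1070 and 1873 in libraries labelled Msx2-KO, and Hspg2, encoding perlecan, had 455 and 834 against 204 and 44.5. Frem2, encoding a protein of the complex that fixes the epidermis to the dermis, had 1308 and 1918 against 292 and 348. None of the 3 passed (limma, adjusted p = 0.149, 0.147 and 0.0733), and of 7 genes tested 4 lay below WT (44.5% of all genes) and 1 above (27.8%). In HFSCs their log2 differences were -0.05, 0.36 and 0.59. Of the small leucine-rich proteoglycans beside Aspn, the 3 with the highest HFSC means were all scarce. Bgn, encoding biglycan, had 4.14 and 3.56 CPM in WT HFSCs and 15.5 and 38.0 in those labelled Msx2-KO, above WT where Aspn was below, and Podn and Prelp were at 0 in 1 library each.

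The genes most like Postn over the 8 libraries were sought among 5785 others, by the root mean square difference of log2 values centred within each table. The closest were Tram1 at 0.40, Ctbp1 at 0.41, Sdc1 at 0.43, Glud1 at 0.43 and Sppl3 at 0.44. Tram1 had 533 and 574 in WT EpdSCs and 9008 and 6318 in those labelled Msx2-KO. For Ctbp1 these values were 1356 and 1353 against 24422 and 17752. Glud1 had 3134 and 3292 against 39359 and 24184.5, and Sppl3 had 1527 and 1282 against 32550.5 and 10561.5. None of these was on the lists of matrix genes. Sdc1, which encodes syndecan 1, an epithelial matrix receptor, had 8054 and 7906 in WT EpdSCs and 272559 and 116512 in those labelled Msx2-KO. In HFSCs it had 216.7 and 248.9 CPM in WT and 217 and 124 in libraries labelled Msx2-KO, an overlap that Postn did not show. Of the other members in this comparison, Fbln1 ranked 174th at 0.85 and Npnt 175th at 0.85, and Angptl2 was at 1.71. Tnc at 1.90, Egfl6 at 2.73 and Ltbp2 at 3.25 were further from Postn than the median gene, at 1.83. The EpdSC difference is the widest step in these profiles and weighs most in the measure.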

How the data were processed

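HFSCs and EpdSCs had been sorted by flow cytometry, and stranded total RNA libraries were sequenced. The authors aligned reads with STAR 2.7.3a in Partek Flow to GRCm38 and counted them on GENCODE genes. For HFSCs the authors deposited estimated counts, not normalized, with fractions where reads were split. For EpdSCs the authors deposited a normalized signal, in which a single count was worth 1.08 and 0.948 in WT and 1.27 and 0.674 in libraries labelled Msx2-KO. Of EpdSC values between 0.3 and 200, 72.7% to 81.5% lay within 0.02 of a whole count. The authors' own comparisons (fold changes and p-values) were not used. Columns with values per library that were not mapped numbered 0.

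After rounding, the HFSC counts were given TMM factors, and the 14422 genes that filterByExpr kept were fitted in the quasi-likelihood model of edgeR 4.0.16. EpdSC values were fitted with limma 3.58.1 on log2(value + 1), which understates the change of low genes. A call needed a Benjamini-Hochberg adjusted p under 0.05 and a fold over 2. An exact permutation test of 2 against 2 libraries cannot give a p under 0.333, so none was run. Alternatives used DESeq2 1.42.0, other scalings, filters and pseudocounts, a replicate block and each library left out, 12 per cell type, 1 of them for EpdSCs (edgeR on recovered counts) chosen after the data were seen. The keratin ratios and percentiles were also chosen then. Both designs were tested on simulated data. At a low spread between replicates they called nearly all genes made to differ. At a high spread, equal for all genes and near or under that estimated here by edgeR, they did not call any. In the EpdSC data limma called 1518 genes, so for that test the simulated spread was unlike the data. A gene that was not called is in any case not shown to be unchanged. R 4.3.3, Python 3.11.15 and matplotlib 3.10.9 were used. The depth of the libraries is given as the range of their totals, and genes near 0, such as Fbn1 in HFSCs and Ltbp2 in EpdSCs, are limited by it.

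Members and lists were chosen with earlier results of these data known. A gene of the lists is not reported here and is left out of their counts. Genes named were the 10 members, the 3 genes of each list with the highest HFSC mean, list genes called in either cell type, the 5 genes most like Postn among those with an HFSC mean of at least 100 counts and an EpdSC mean of at least 10, and the defining markers of each cell type. Lengths came from the longest coding transcript in GENCODE M21, whose gene coordinates were the same as the table's for all 9 members. Promoter sequences came from RefSeq.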

Additional observations from a re-analysis of the deposited data

Results flagged for a closer look

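Postn lay below WT in both HFSC libraries labelled Msx2-KO and above WT in both EpdSC libraries labelled Msx2-KO, with log2 fold changes of -1.24 and 4.32. Fbln1 did the same, with -1.78 and 3.46. Each was singled out because all libraries labelled Msx2-KO lay below WT in HFSCs and above WT in EpdSCs. Of all genes tested, 33.5% lay below WT in HFSCs and 27.8% above WT in EpdSCs, and the share doing both was not computed. The HFSC side is the contrast on which the genes were chosen. The lower groups of both contrasts, HFSCs labelled Msx2-KO and WT EpdSCs, carry consecutive library names of the same series. The part of library series in these directions was not tested. The difference between the cell types was not tested either, since the tables were scaled separately. Against Krt14 the EpdSC libraries of Fbln1 overlapped, and those of Postn did not.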

How the results depend on the processing

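In HFSCs 0 genes were called by edgeR, against 690 by DESeq2, 1407 by limma-trend, 51 with library totals, 2 with at least 10 counts in every library, 231 with a replicate block and 132 to 9272 with a library left out. Members called, on the contrast that chose them and so with nothing read from it, were 3 by DESeq2, 1 (Ltbp2) with the block and 0 to 6 with a library left out, and list genes called were 6, 6 (limma-trend), 2 (library totals), 3 (block) and 3 to 22. The members' median log2 difference of -1.52 became -1.75 by limma-trend, -2.38 with library totals, -1.76 with the block, and -1.63 to -1.20 with a library left out. Library totals moved the median of all genes from -0.14 to -1.002 and turned Npnt to -0.44.

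In EpdSCs the 1 member called became 2 with a pseudocount of 0.1, 3 with 10, 2 by limma-trend, 2 with the replicate block (Ltbp2 at an adjusted p of 0.0498 by limma beside Postn), 0 by edgeR on recovered counts and 0 to 4 with a library left out. Genes called, 1518, became 0 by edgeR and 0 to 10376 with a library left out, and list genes called, 2, became 7 with a pseudocount of 10, 6 by limma-trend, 4 with the block, 0 by edgeR, 0 to 22 with a library left out, and 1 each with library totals, with a pseudocount of 0.1, without mitochondrial and ribosomal RNA genes, or where genes under a mean of 10 were dropped. Both counts were 0 without either WT library. The members' median of 0.29, which is the value of Tnc, became -0.23 without mitochondrial and ribosomal RNA genes, -0.079 by edgeR and -0.61 to 1.60 with a library left out. Tnc itself became -0.18 by edgeR and -1.02 without WT replicate 1, and Angptl2 ran from -1.35 to 0.70 with a library left out. The median of all genes, -0.64, ran to -1.14 without those RNA genes and -0.27 by edgeR. The cause of these shifts was not tested.

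The labels give no pairing of libraries beyond a replicate number. Same-numbered deviations had correlations of -0.035 in HFSCs and -0.023 in EpdSCs. With 2 libraries a group, these values cannot show whether libraries were paired. Of 84 single-gene EpdSC results over the alternatives, 67 kept direction and call, 10 gained a call, 3 lost it (all Postn) and 4 turned sign. Of 96 in HFSCs, 81 moved less than the spread between replicates, 14 moved more and 1 turned sign.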
